A study of Mus musculus with 17 samples.

Results

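The 33 interferon-stimulated genes described here were followed by RNA-seq through the culture of mouse retinal progenitor cells, called mNRPCs. They were taken by name from a fixed list that was chosen with earlier results of these data known. All 33 were found among the 18836 genes listed in the deposited files. Genes of MHC class I and of the immunoproteasome were not part of the list. The cells were from the retina of C57BL/6 mice, which the study describes as adult, and carried no allele or transgene named in the labels. Of 17 libraries, the day 0 control was 1 untreated library. The other 16 were 1 library for each of 4 treatments on days 1, 3, 5 and 7. BM was the basic medium alone, which per the study held N2 and B27 supplements. B was BM with bFGF, basic fibroblast growth factor, a mitogen of neural progenitors. C was BM with CHIR99021, an inhibitor of the kinase GSK3 that stabilises β-catenin and so activates canonical Wnt signalling. BC was BM with both agents. The study expanded its cells with both agents, so BM, B and C each lacked at least 1 agent of that medium. The study describes day 0 as cells in BM in its results and as values before treatment in its methods.

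Interferon-stimulated genes are the antiviral and immune genes that cells switch on in response to interferons. Type I interferons bind the receptor IFNAR1/IFNAR2, the kinases JAK1 and TYK2 phosphorylate STAT proteins such as STAT2, which joins IRF9 in the complex ISGF3, which binds the interferon-stimulated response element (ISRE). Interferon gamma acts on gamma-activated sites (GAS). Many cells, stem and progenitor cells among them, keep a basal level of these genes without infection, and neurons, glia and microglia of the retina can all express them.

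Levels are given as FPKM, which the authors computed by dividing each gene's reads by transcript length and library total. Changes were tested on the expected counts, the authors' estimated reads per gene, with edgeR's quasi-likelihood test. Fold changes from this test are log2 values after TMM scaling and so are relative to the average gene. Adjusted p values are Benjamini-Hochberg values over the 11272 genes whose FPKM averaged 1 or more in the cultured libraries, and a gene was called at an adjusted p under 0.05. All 33 members passed that filter. As each treatment and day was 1 library, these p values measure departures from the fitted effects of day, bFGF and CHIR99021 and not the spread between cultures.

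Depth was even, with totals of 17571973 to 19428744 expected counts per library. The TMM factors were not. They lay between 0.7545 and 0.8159 in B and BC on days 5 and 7 and between 1.015 and 1.127 in the other cultured libraries. With library totals as the only scaling, the median of all genes was lower with bFGF by log2 values of -0.46 on day 5 and -0.54 on day 7, so a gene at an equal FPKM in both groups counts as higher with bFGF in the TMM fit. FPKM values below hold this shift and log2 fold changes do not. Of the retinal progenitor markers read, Pax6, Six3, Sox2, Nes, Hes1 and Ccnd1 were found in every library, while Rax, which marks early retinal progenitors, reached no more than 0.07 FPKM. Their levels differed with bFGF. On day 7 Pax6 held 164.7 and 152.4 FPKM in BM and C and 10.7 and 16.5 in B and BC. Six3, Sox2, Nes and Hes1 were also lower with bFGF on that day, and Ccnd1 was higher. The part of these differences in the member results was not tested. In bulk RNA, fewer cells of a type and less RNA per cell cannot be told apart.

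The promoters of several members hold the letters to which ISGF3 binds, and 6 stretches are shown. Their genes either fell furthest with bFGF, encode the core of the response, or were called higher over the days after TMM scaling. The ISRE was searched as GAAANNGAAA on both strands (TTTCNNTTTC on the other), with overlapping matches counted, in RefSeq windows of 250 bases before to 50 after a gene's start (GRCm38.p6). Capitals mark the matches, and each line reads 5′ to 3′ on the strand of its gene.
Ifit1, chr19:34640760-34640838, plus strand: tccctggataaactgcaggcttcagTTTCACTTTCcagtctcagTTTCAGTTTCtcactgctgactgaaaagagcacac
Isg15, chr4:156200850-156200921, minus strand: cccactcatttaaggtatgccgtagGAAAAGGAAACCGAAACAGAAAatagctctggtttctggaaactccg
Gbp2, chr3:142620579-142620638, plus strand: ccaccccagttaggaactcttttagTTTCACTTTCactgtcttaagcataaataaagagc
Stat2, chr10:128270251-128270310, plus strand: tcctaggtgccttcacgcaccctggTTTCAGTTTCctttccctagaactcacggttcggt
Bst2, chr8:71537562-71537627, minus strand: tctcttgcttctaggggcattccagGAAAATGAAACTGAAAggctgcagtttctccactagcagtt
Cxcl10, chr5:92349068-92349127, minus strand: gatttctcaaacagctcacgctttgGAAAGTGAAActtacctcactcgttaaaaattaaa

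The matches in these 6 promoters began between 59 bases before the gene's start in Gbp2 and 222 bases before it in Stat2. Isg15 held 3 overlapping matches, Ifit1 held 2 separate ones and Bst2 held 2 that overlap. RefSeq windows were matched for 27 of the 33 members, and 13 of these 27 (48.1%) held at least 1 ISRE match, against 3.99% of all 27025 genes in the table and 3.69% of the 9068 tested genes with a window. A GAS match, TTCNNNGAA, was found in 7 of the 27 members (25.9%) and in 9.55% of all genes. Dhx58, Ifi27, Rtp4, Parp9, Parp14 and Usp18 had no entry. Matches are a description of letters and not of binding. Of the 13 members with an ISRE match, 9 were called lower with bFGF over days 1 to 7, 2 higher (Bst2 and Cxcl10) and 2 were not called. With library totals only, neither Bst2 nor Cxcl10 was called higher over the days. Of the 14 without a match in these windows, 8 were called lower, 1 higher and 5 were not called. Of all genes tested, 33.9% were called lower and 34.6% higher.

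Position in the genome groups some members. Ifit1, Ifit2 and Ifit3 lie together on chromosome 19, between bases 34550550 (Ifit2) and 34650009 (Ifit1). Gbp2, Gbp3 and Gbp7 lie together on chromosome 3, from base 142530336 (Gbp7) to 142638008 (Gbp2). Parp14, Dtx3l and Parp9 are neighbours on chromosome 16, and the annotated ends of Dtx3l (35926515 to 35939027) and Parp9 (35938470 to 35972621) overlap. The strand setting of the counting is not given in the sources used here, so reads in that overlap cannot be assigned with certainty. Ifit3 with Ifit3b, Oas1a with Oas1g, and the Gbp genes have near-identical relatives, so the split of shared reads between them is uncertain.

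Against day 0, nearly all members were higher on day 1 in every treatment, and they later stayed high without bFGF and came down with it. These comparisons set single libraries against the 1 day 0 library on log2(FPKM + 1), carry no test, and count a difference of at least 2-fold. On day 1, 32 of 33 members were at least 2-fold higher in BM and 32 in C, where 7.15% and 7.07% of all genes were. In B and BC the count was 29 members each, against 3.71% and 3.49% of all genes. The median member rose by log2 values of 1.88 and 1.72 in BM and C and 1.61 and 1.58 in B and BC. Ifi44, a gene induced by type I interferons, had the largest rise, from 10.1 FPKM on day 0 to 147 and 127 in BM and C and 159 and 144 in B and BC of day 1. Ifi27, which encodes a small membrane protein, was the member that went the other way. It stood at 54.4 FPKM on day 0 and between 29.6 and 39.1 FPKM in the 4 libraries of day 1.

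Without bFGF the rise over day 0 held to day 7. In BM, 29, 28 and 27 members were at least 2-fold above day 0 on days 3, 5 and 7, against 22.3%, 21.3% and 21.1% of all genes. In C the counts were 29, 27 and 28 members, against 21.9%, 21.5% and 21.5%. No member was at least 2-fold below day 0 in BM or C on these days, while 15.3%, 14.1% and 13.0% of all genes were in BM and 15.4%, 14.8% and 13.9% in C. With bFGF the counts fell off. In B they were 19, 10 and 13 members on days 3, 5 and 7, against 15.7%, 11.7% and 11.9% of all genes, and in BC they were 28, 8 and 11, against 18.7%, 12.5% and 12.1%. In B, 1 member on day 3, 6 on day 5 and 2 on day 7 were at least 2-fold below day 0, against 12.4%, 23.2% and 23.2% of all genes. In BC, 1, 5 and 3 members were, against 14.2%, 23.2% and 25.6%.

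**Figure D1:**
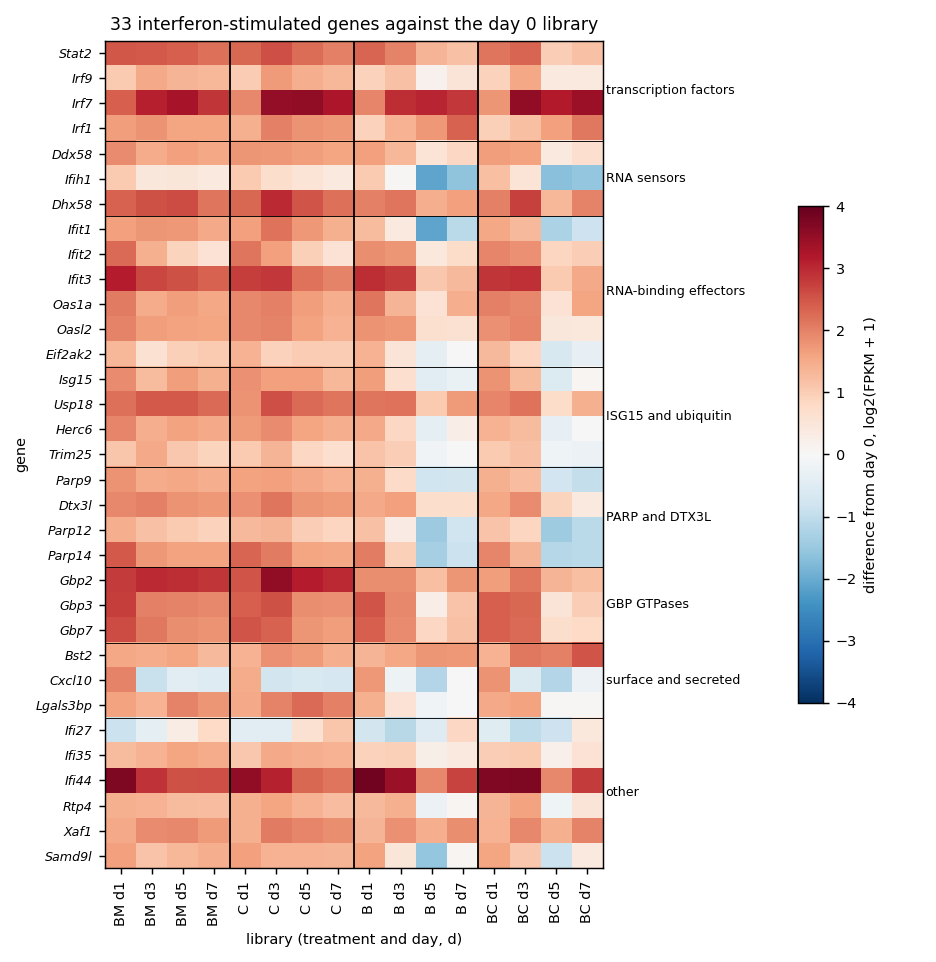
Difference from the day 0 library in log2(FPKM + 1), coloured from blue (lower) to red (higher), for the 33 members (rows, by role) in the 16 cultured libraries (columns, 1 library each, by treatment and day, d). In BM and C most rows, though not Cxcl10 and Ifi27, stay red to day 7, while on days 5 and 7 B and BC turn pale or blue for most members and stay red for genes such as Irf7, Irf1, Bst2 and Ifi44.

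Most of the members were lower with bFGF over the culture as a whole. Over days 1 to 7, with day and CHIR99021 in the model, 19 members were called lower and 3 higher in the libraries with bFGF, and 11 were not called. Calls were frequent among all genes, of which 33.9% were called lower and 34.6% higher (68.4% in all). The median log2 fold change of the 33 members was -0.32, and that of all tested genes was -0.002. With library totals only, the split was 25 lower and 0 higher. That scaling also lowers the median of all genes with bFGF, and the shares of all genes above are not for it. In 17 members the FPKM was lower with bFGF in all 8 pairs of libraries that share a day and a CHIR99021 state. FPKM holds the shift of all genes, of which 55.9% to 69.3% were lower with bFGF in a single pair. The share of all genes lower in all 8 pairs was not computed. The number of members called by the fit in either direction was 22 with all days, 11 without day 5 and 11 without day 7.

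By day, the difference was small on day 1, larger on day 3, largest on day 5 and smaller again on day 7. On day 1, 2 members were called, Gbp2 at a log2 fold change of -0.83 ± 0.20 (SE, adjusted p = 0.0237) and Irf1 at -0.55 ± 0.13 (SE, adjusted p = 0.0204), where 4.46% of all genes were called lower and 6.21% higher. Neither call held when B, BM or BC of day 1 was left out. On day 3, 10 members were called lower and 3 higher, against 25% and 25.4% of all genes (50.4% in all), and the count of 13 became 5 without B, 6 without C and 20 without BC of that day. On day 5, 26 members were called lower and 2 higher, against 38.6% and 37.2%. On day 7, 19 were called lower and 8 higher, against 39.6% and 38.8% of all genes. Library totals only gave 23 lower and 5 higher, a scaling to which those shares do not apply. The 19 members called lower on day 7 were all among the 26 called lower on day 5. Both sets of calls come from the same fit, and the overlap over all genes was not computed. The median member stood at a log2 fold change of -0.05 on day 1, -0.22 on day 3, -0.78 on day 5 and -0.38 on day 7, with the median of all genes within 0.04 of 0 on each day.

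**Figure D2:**
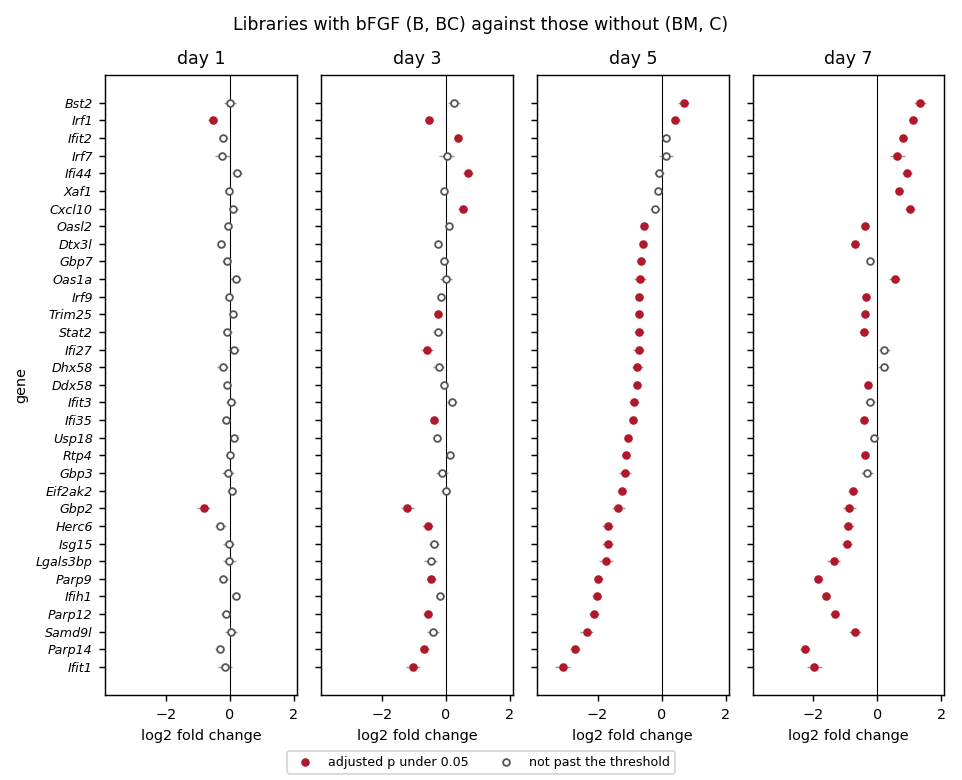
Log2 fold change of each member in libraries with bFGF (B, BC) against those without (BM, C) on days 1, 3, 5 and 7 from the edgeR fit, with bars of 1 SE and filled points for adjusted p under 0.05. The points hug 0 on day 1, spread to the left on day 5 down to -3.09 for Ifit1, and on day 7 divide into 19 filled points left of 0 and 8 right of it.

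The transcription factors of the response moved in different directions. Stat2 and Irf9 encode parts of ISGF3. Stat2 rose from 17.4 FPKM on day 0 to 102, 99.1, 96.4 and 84.4 FPKM in BM and 89.3, 108, 85 and 73.6 in C on days 1, 3, 5 and 7. In B it ran at 91.5, 72.2, 46.7 and 40.9 FPKM and in BC at 79.2, 91.02, 35.4 and 40.4. On day 1 the treatments overlapped, and from day 3 both libraries with bFGF lay below both without on each day. Its log2 fold change with bFGF over the days was -0.36 ± 0.11 (SE, adjusted p = 0.00903). Irf9 stood at 28.3 FPKM on day 0, and on days 1, 3, 5 and 7 at 60.2, 82.4, 73.6 and 72.6 in BM and 57.8, 94.3, 78.7 and 72.98 in C, against 54.2, 65.1, 31.8 and 40.9 in B and 54.8, 85, 37.1 and 37.5 in BC. Both libraries with bFGF lay below both without on days 1, 5 and 7, and on day 3 the treatments overlapped. B and BC stayed above the day 0 level. Its log2 fold change was -0.31 ± 0.09 (SE, adjusted p = 0.0104).

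Irf7, which encodes the factor that amplifies the induction of type I interferon genes, was not called over the days (0.13, adjusted p = 0.443). It rose from 76.1 FPKM on day 0 to 405, 669, 753 and 556 in BM and 291, 888, 897 and 724 in C on days 1, 3, 5 and 7. In B Irf7 ran at 301, 597, 638 and 546 FPKM and in BC at 260.5, 895, 687 and 820.0, so every library held at least 545.8 FPKM from day 3. The treatments overlapped on days 1, 3 and 7, and on day 5 both libraries with bFGF lay below both without. On day 7 it was called higher with bFGF at 0.63 ± 0.23 (SE, adjusted p = 0.0224), but at 0.08 and not called with library totals only. Irf1, a factor induced strongly by interferon gamma, changed sign over the days. It stood at 27.7 FPKM on day 0, at 91.1, 99.8, 85.6 and 84.7 FPKM in BM and 76.7, 115, 99.9 and 94.4 in C on days 1, 3, 5 and 7, and at 54.04, 73.7, 95.2 and 146 in B and 54.3, 65.5, 89.4 and 123 in BC. On days 1 and 3 both libraries with bFGF lay below both without, on day 5 they overlapped, and on day 7 both lay above. Its log2 fold change was -0.53 ± 0.13 (SE, adjusted p = 0.00433) on day 3 and 1.12 ± 0.13 (SE, adjusted p = 4.7e-06) on day 7. On day 5 it was called at 0.44, but the value was -0.0088 with library totals only and -0.0024 with limma on log2(FPKM + 1).

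The 3 sensors of double-stranded RNA in the cytoplasm were all called lower on day 5. Ifih1, which encodes MDA5, the sensor of long duplexes, fell furthest of them. From 19.4 FPKM on day 0 it ran at 40.7, 26.6, 27.2 and 25.8 in BM and 41.2, 32.01, 28.8 and 25.96 in C, against 40.9, 19.9, 3.71 and 5.67 in B and 45.5, 28.6, 5.38 and 5.90 in BC. On days 5 and 7 the bFGF libraries lay between 3.71 and 5.90 FPKM, below the day 0 level, and those without bFGF between 25.83 and 28.76. The log2 fold change was -2.03 ± 0.13 (SE, adjusted p = 4.75e-08) on day 5 and -1.59 ± 0.13 (SE, adjusted p = 2.04e-07) on day 7. Ddx58, which encodes RIG-I, had -0.78 ± 0.12 on day 5 and -0.30 ± 0.12 on day 7, both called. Dhx58, which encodes the regulatory sensor LGP2, had -0.76 ± 0.17 on day 5, called, and 0.19 on day 7, not called.

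Among the 6 effectors that bind or sense RNA, Ifit1 was the member with the largest fold change of all 33. IFIT1 binds RNA that lacks the methylation of host caps and blocks its translation. It stood at 32.01 FPKM on day 0 and at 103, 112, 109 and 93.7 in BM and 101, 148, 108 and 86.6 in C on days 1, 3, 5 and 7. In B it ran at 78.5, 42.1, 6.65 and 14.5 FPKM and in BC at 95, 79.5, 12.6 and 17.4. On day 5 the mean was 108 FPKM without bFGF and 9.64 with it, which is 11.3-fold lower, and on each day the bFGF libraries lay below the others. The log2 fold change was -1.55 ± 0.34 (SE, adjusted p = 0.00188) over the days, -3.09 ± 0.24 (SE, adjusted p = 2.45e-07) on day 5 and -1.97 ± 0.23 (SE, adjusted p = 5.78e-06) on day 7. Its 2 neighbours on chromosome 19 had smaller or opposite values. Ifit2 was called higher with bFGF on day 3 (0.37 ± 0.12) and day 7 (0.81 ± 0.12). Ifit3 was called lower on day 5 (-0.87 ± 0.16), and its value on day 7 was -0.22, not called.

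Eif2ak2, which encodes the kinase PKR that stops translation on sensing double-stranded RNA, was lower with bFGF on days 5 and 7 (-1.24 ± 0.15 and -0.76 ± 0.14, both called). The oligoadenylate synthetase gene Oas1a, whose product activates RNase L, was called lower on day 5 at -0.68 ± 0.18 and higher on day 7 at 0.55 ± 0.18. On day 7 its mean FPKM was 49.96 without and 50.3 with bFGF, with overlapping libraries, and with library totals only the value was 0.01 and not called. Oasl2, a related gene, was called lower on days 5 and 7 (-0.56 ± 0.13 and -0.40 ± 0.13).

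ISG15 is a ubiquitin-like protein that is attached to other proteins, and 3 further members act with it or with ubiquitin. Isg15 was among the most abundant members. It rose from 172 FPKM on day 0 to 636, 413, 545 and 466 in BM and 619, 539.5, 536 and 436 in C, against 555, 277, 128 and 143 in B and 596, 414, 117 and 181 in BC, on days 1, 3, 5 and 7. BC matched BM on day 3, and from day 5 both bFGF libraries lay near or below the day 0 level while both others lay between 436 and 545 FPKM. The log2 fold change was -0.76 ± 0.20 (SE, adjusted p = 0.00478) over the days and -1.69 ± 0.17 (SE, adjusted p = 1.58e-06) on day 5. Herc6, the main ligase for ISG15 in mice, stood at 7.87 FPKM on day 0 and at 33.01, 23.4, 26.3 and 24.6 in BM and 28.1, 31.9, 25.4 and 23.1 in C, against 24.5, 14.6, 5.80 and 9.69 in B and 22.4, 20.4, 6.04 and 7.86 in BC. It was below the matching library without bFGF in all 8 pairs and changed by -0.86 ± 0.17 (SE, adjusted p = 0.00102) over the days.

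Usp18 encodes the protease that removes ISG15 and also dampens IFNAR signalling. It was called on day 5 (-1.04 ± 0.12), and had values of -0.32 over the days and -0.10 on day 7 that were not called. Trim25, a ubiquitin ligase of the RIG-I pathway, was called lower on days 3, 5 and 7, at -0.26 ± 0.10, -0.71 ± 0.10 and -0.38 ± 0.10.

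The genes for PARP enzymes and their partner DTX3L formed the role with the lowest median, a log2 fold change of -1.07 over the days, and all 4 were called lower over the days and on days 5 and 7. Parp14, which encodes an ADP-ribosyltransferase that adds single ADP-ribose units, rose from 9.17 FPKM on day 0 to 54.5, 32.7, 30.2 and 30.2 in BM and 50.3, 41.7, 29.5 and 28.4 in C, against 40.96, 18.7, 3.07 and 4.57 in B and 38.5, 25.1, 3.65 and 3.80 in BC. On day 5 its mean was 8.89-fold lower with bFGF, and 7.01-fold lower on day 7. The log2 fold change was -1.48 ± 0.31 (SE, adjusted p = 0.00139) over the days, -2.71 on day 5 and -2.26 on day 7.

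Parp9 and Dtx3l encode the 2 parts of a complex that modifies histones and viral proteins. Parp9 stood at 15.5 FPKM on day 0, 57.01, 45.3, 47.4 and 44.5 in BM and 49.6, 50.1, 45.9 and 42.01 in C, against 43.6, 27.3, 8.61 and 8.84 in B and 43.8, 38.05, 8.75 and 7.54 in BC, with -1.11 ± 0.24 (SE, adjusted p = 0.00169) over the days. Dtx3l stood at 7.52 FPKM on day 0, 31.4, 33.3, 28.5 and 27.4 in BM and 29.02, 36.9, 28.2 and 26.5 in C, against 23.4, 25.4, 12.8 and 12.9 in B and 23.7, 30.4, 14.8 and 10.2 in BC, with -0.45 ± 0.08 (SE, adjusted p = 0.000804). In the bFGF libraries of days 5 and 7, Parp9 was below its day 0 level and Dtx3l above it. Parp12, a related enzyme that restrains several viruses, stood at 28.1 FPKM on day 0, 77.9, 64.3, 58.9 and 53.7 in BM and 71.2, 73.6, 56.7 and 51.5 in C, against 64.9, 35.4, 9.69 and 15.8 in B and 63.5, 52.2, 9.89 and 12.8 in BC. It too ended below day 0 with bFGF, and its log2 fold change over the days was -1.03 ± 0.23 (SE, adjusted p = 0.00205).

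The guanylate-binding proteins are GTPases that attack the membranes of intracellular pathogens, and Gbp2 was, beside Irf1, called on day 1 already, a call that did not hold when B, BM or BC of that day was left out. From 12.1 FPKM on day 0 it ran at 90.1, 102, 100 and 94.6 in BM and 73.8, 151, 114 and 102 in C, against 46.9, 46.5, 28.97 and 43.7 in B and 40.6, 55.8, 32.2 and 29.4 in BC. Every bFGF library lay below every library without bFGF, on any day. The log2 fold change was -1.07 ± 0.12 (SE, adjusted p = 5.65e-05) over the days and between -1.36 and -0.83 on single days, called on all 4. Gbp3 stood at 16.8 FPKM on day 0, 119, 71.2, 68.8 and 66.5 in BM and 93.4, 104, 64.3 and 62.9 in C, against 100.5, 66.1, 20.3 and 37.9 in B and 92.1, 87.2, 24.6 and 34.6 in BC. It was high on day 1 in every treatment, changed by -0.40 ± 0.15 (SE, adjusted p = 0.0325) over the days and was called by day on day 5 only, of the 4 days (-1.14 ± 0.19). Gbp7 was likewise called on day 5 (-0.64 ± 0.14) and over the days (-0.25 ± 0.10), but on no other single day.

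Of the 3 members at the cell surface or secreted, Bst2 and Cxcl10 were called higher with bFGF on day 7 and Lgals3bp lower. Bst2 encodes tetherin, which holds budding viruses at the membrane, and was the most abundant member. It rose from 278 FPKM on day 0 to 815, 782, 827 and 686 in BM and 729, 993, 910.3 and 755 in C, against 722, 814, 941 and 931 in B and 739, 1196, 1121 and 1586 in BC. BC was the highest library of days 3, 5 and 7, and on day 7 both bFGF libraries lay above both others. The log2 fold change was 0.57 ± 0.18 (SE, adjusted p = 0.0129) over the days and 1.33 ± 0.19 (SE, adjusted p = 3.16e-05) on day 7. With library totals only it was 0.28 over the days, not called, and 0.78 on day 7, called. On day 5 it was called at 0.69 ± 0.18, and was at 0.24 and not called with library totals only.

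Cxcl10, a chemokine that draws T cells through CXCR3, peaked early. It stood at 106 FPKM on day 0, 425, 56.3, 77.2 and 74.7 in BM and 299, 64.1, 69.8 and 66.3 in C, against 358, 92.2, 46.5 and 106 in B and 369, 71.5, 47.01 and 91.03 in BC. After the day 1 peak it lay below the day 0 level in all 12 later libraries, and on day 7 both bFGF libraries were above both others at 1.02 ± 0.14 (SE, adjusted p = 3.08e-05). Its call over the days (0.36, adjusted p = 0.0471) was kept in 5 of 12 other settings and in 6 of 16 fits that left out 1 library, with adjusted p between 0.0226 and 0.656. Lgals3bp, a secreted glycoprotein that binds galectins, stood at 69.6 FPKM on day 0, 215, 186, 277 and 239.9 in BM and 199, 276, 338 and 288 in C, against 188, 105, 62.7 and 68.8 in B and 199, 214, 72.2 and 71.2 in BC. On days 5 and 7 it was back at about its day 0 level with bFGF and had risen further without it, with a log2 fold change of -0.90 ± 0.22 (SE, adjusted p = 0.0037) over the days.

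**Figure D3:**
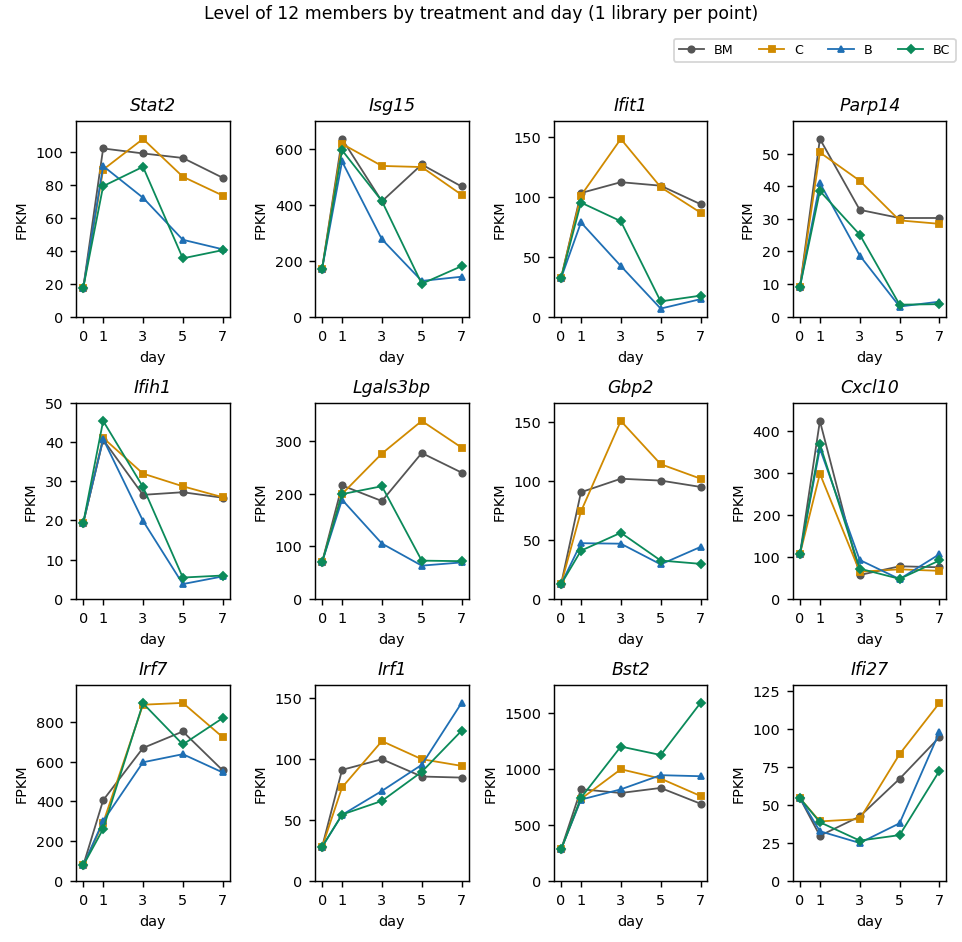
FPKM of 12 members (y axes, linear, from 0) against day of culture in BM, C, B and BC, 1 library per point, all starting at the single day 0 library. Stat2, Isg15, Ifit1, Parp14, Ifih1 and Lgals3bp part between bFGF and no bFGF from day 3 or 5, Gbp2 from day 1, Cxcl10 peaks on day 1, and Irf1 and Bst2 end highest with bFGF.

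The other 6 members had no shared role. Ifi35, which encodes a protein of the cytoplasm that also acts as an inflammatory signal, stood at 31.5 FPKM on day 0, 76.8, 84.3, 95.4 and 90.6 in BM and 67.3, 91.04, 87.8 and 83.8 in C, against 61.2, 61.6, 36.9 and 41.8 in B and 63.1, 66.1, 36.1 and 47.9 in BC. It was lower with bFGF in all 8 pairs, by -0.45 ± 0.10 (SE, adjusted p = 0.00176) over the days. Samd9l, a translational repressor that limits poxviruses, stood at 12.03 FPKM on day 0, 39.6, 27.7, 32.01 and 34.8 in BM and 39.2, 33.2, 32.9 and 32.4 in C, against 38.7, 17.1, 3.47 and 12.8 in B and 37.9, 26.8, 6.22 and 16.1 in BC. It dipped below the day 0 level with bFGF on day 5 and was back above it on day 7, with log2 fold changes of -2.34 ± 0.20 (SE, adjusted p = 5.82e-07) on day 5 and -0.70 ± 0.19 (SE, adjusted p = 0.00471) on day 7.

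Rtp4 was called lower on days 5 and 7 (-1.10 ± 0.12 and -0.38 ± 0.12). Xaf1, whose product opposes an inhibitor of caspases, and Ifi44 were called higher on day 7, at 0.69 ± 0.10 and 0.92 ± 0.16. With library totals only, Xaf1 was at 0.15 and not called on day 7, and Ifi44 was at 0.38 and called. Ifi27 was called lower on day 3 and day 5 (-0.58 ± 0.18 and -0.72 ± 0.18) and had a value of 0.21 on day 7, not called.

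The bFGF effect of day 7 was set against that of day 1 in a test of the difference itself. It was called for 19 members, 12 with a more negative effect on day 7 and 7 with a more positive one, against 34.1% and 31.3% of all genes (65.4% in all). With library totals only the split was 22 and 3, while the shares of all genes just given are for the TMM fit. Parp14 (-1.95 ± 0.21), Ifit1 (-1.80 ± 0.31), Ifih1 (-1.77 ± 0.17) and Parp9 (-1.64 ± 0.19) had the most negative differences. Irf1 (1.67 ± 0.18), Bst2 (1.33 ± 0.26) and Ifit2 (1.04 ± 0.17) had the most positive, and these 3 were also the ones called with library totals only. The 3 Gbp genes were not among the 19. Gbp2 was already lower on day 1, and the differences of Gbp3 and Gbp7 were -0.25 and -0.13.

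Within a bFGF state, the members changed with time as follows. From day 1 to day 3 without bFGF, 9 were called higher and 8 lower, against 35.4% and 32% of all genes, and with bFGF 6 and 8, against 32.4% and 32.9%. Irf7, Irf9, Irf1, Dhx58 and Xaf1 were called higher and Cxcl10, Eif2ak2, Ifih1, Isg15 and Parp14 lower in both states. Cxcl10 fell by 2.55 on the log2 scale without bFGF and by 2.13 with it. Irf7 rose by 1.15 and 1.41.

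From day 3 to day 7 without bFGF, 9 members were called lower and 1 higher, against 9.25% and 9.15% of all genes (18.4% in all). That count of 10 was 3 without C of day 3, 5 without BM of day 7 and 3 without C of day 7. With bFGF, 21 were called lower and 5 higher, against 33.6% and 32.7% of all genes. Library totals only gave 25 and 2, and those shares of all genes are for the TMM fit. Trim25, Dtx3l, Gbp7, Ifi44, Ifit2, Ifit3 and Oasl2 were called lower in both states. Ifi27, which had fallen on day 1, was called higher in both, by 1.29 ± 0.18 without bFGF and 2.09 ± 0.18 with it. Parp14 (-1.97 ± 0.15) and Ifih1 (-1.62 ± 0.13) had the largest falls with bFGF.

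CHIR99021 gave no call among the 33 members. In the model of days 1 to 7 with edgeR, 0 members were called in either direction, 0 had an unadjusted p under 0.05 and DESeq2 called 0, where edgeR called 0.337% of all genes. Member log2 fold changes lay between -0.15 and 0.32. The interaction of bFGF and CHIR99021 was called for 0 members, with 0 at an unadjusted p under 0.05 and 0 by DESeq2, against 0.00887% of all genes. These fits look for an effect shared by the days and hold no term for a bFGF effect that differs between days. Such changes count as spread, which was larger than in the fit by 8 groups of day and bFGF. CHIR99021 was not tested in that fit, so the lack of calls does not show the lack of an effect. In FPKM, Ifih1 was higher with CHIR99021 in all 8 pairs that share a day and bFGF state, and Bst2 and Lgals3bp in 7. Usp18 and Trim25 were lower in 7 of the 8. The shares of all genes that went 1 way in 7 or 8 of these pairs were not computed, so these genes are not shown to respond to CHIR99021. Single days also differed between libraries. On day 3, C lay above BM in FPKM for 31 of 33 members, while 47.4% of all genes did, and BC above B for 30 of 33, while 53.2% of all genes did. The median member differed by 0.25 and 0.35 on log2(FPKM + 1). Lgals3bp had the largest difference in both pairs (0.57 and 1.02), followed in the pair with bFGF by Ifit1 (0.90) and in the pair without by Gbp2 (0.56). Cxcl10 and Irf1, at -0.36 and -0.17, were lower in BC than in B.

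On day 1 the pair without bFGF went the other way. C lay below BM for 30 of 33 members, with a median of -0.11, while 47.7% of all genes were lower, and BC lay below B for 15, while 45.2% of all genes did. On day 5, C lay above BM for 16 members and BC above B for 17, against 48.7% and 54.0% of all genes. On day 7 the counts were 11 and 15, against 48.9% and 41.8%. Each of these is a difference between 2 single libraries, with no replicate check.

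**Figure D4:**
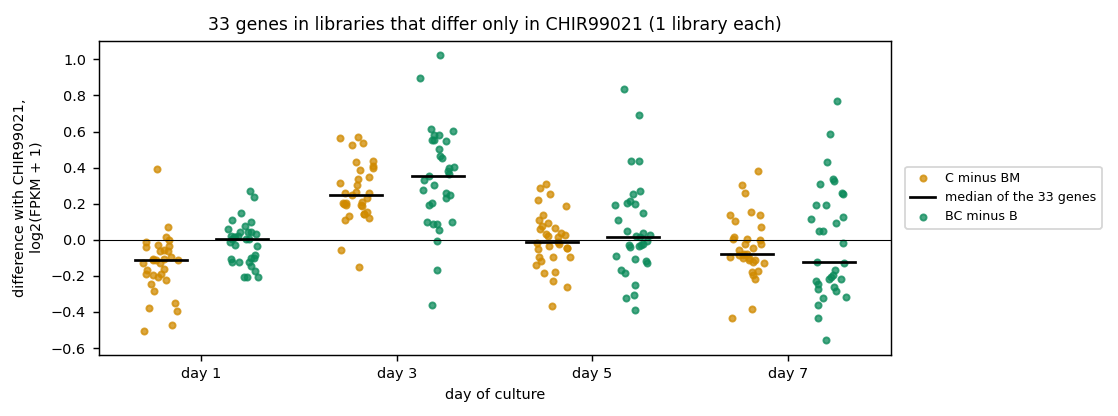
Difference with CHIR99021 in log2(FPKM + 1) for the 33 members (points, spread sideways for legibility) in 8 pairs of single libraries, C minus BM and BC minus B, by day, with black bars at the medians. Nearly all points of day 3 lie above 0 in both pairs, most points of C minus BM on day 1 lie below it, and the rest straddle it.

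Upstream of the members, a list of 38 interferon signalling genes was read, of which 33 were in the files and 27 passed the filter. Over the days, 7 of the 27 were called higher and 10 lower with bFGF, against 34.6% and 33.9% of all genes. The interferon ligands were near the limit of listing. Ifnb1, the gene of interferon beta, was at 0.07 FPKM on day 0 and at most 0.57 in any library, and Ifna1, Ifna4, Ifnab and Ifne did not exceed 0.17. Ifng, Ifna2, Ifnk, Ifnl2 and Ifnl3 were not analysed here. The receptor genes of type I interferon were expressed throughout. Ifnar1 ran from 8.29 FPKM on day 0 to between 10.4 and 15.9 FPKM, and Ifnar2 from 17.04 to between 21.2 and 48.3. Neither was called over the days (0.11 and 0.08), nor were the interferon gamma receptor genes Ifngr1 (0.15) and Ifngr2 (-0.14). Ifnlr1, of the interferon lambda receptor, was at or below 0.01 FPKM, and its partner Il10rb was called lower (-0.32 ± 0.10).

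Of the kinases, Jak1 and Tyk2 were called higher with bFGF after TMM scaling (0.24 ± 0.10 and 0.48 ± 0.13), and Jak2 was not called (0.14). In FPKM, both libraries with bFGF lay below both without on day 1 for Jak1 and for Tyk2. Jak1 lay above on day 5 and overlapped on days 3 and 7. Tyk2 lay above on days 3 and 7 and overlapped on day 5.

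Tlr3, the endosomal sensor of double-stranded RNA, stood on day 1 at 8.73 FPKM in B and 8.72 FPKM in BC. On day 7 these held 0.79 and 0.69 FPKM, while BM and C held 11.04 and 12.5. Its log2 fold change over the days was -1.89 ± 0.44 (SE, adjusted p = 0.00265). Irf3, the factor that turns on interferon beta after RNA sensing, was also called lower (-0.996 ± 0.25, SE, adjusted p = 0.00359). It stood at 42.2 FPKM on day 0, and on day 7 B held 9.24 and BC 13.01. Among the inhibitors, Socs1 was called higher (0.40 ± 0.13) and Socs3 lower (-0.78 ± 0.14). In FPKM, Socs1 overlapped between libraries with and without bFGF on days 1, 3 and 5 and lay above with bFGF on day 7.

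**Figure D5:**
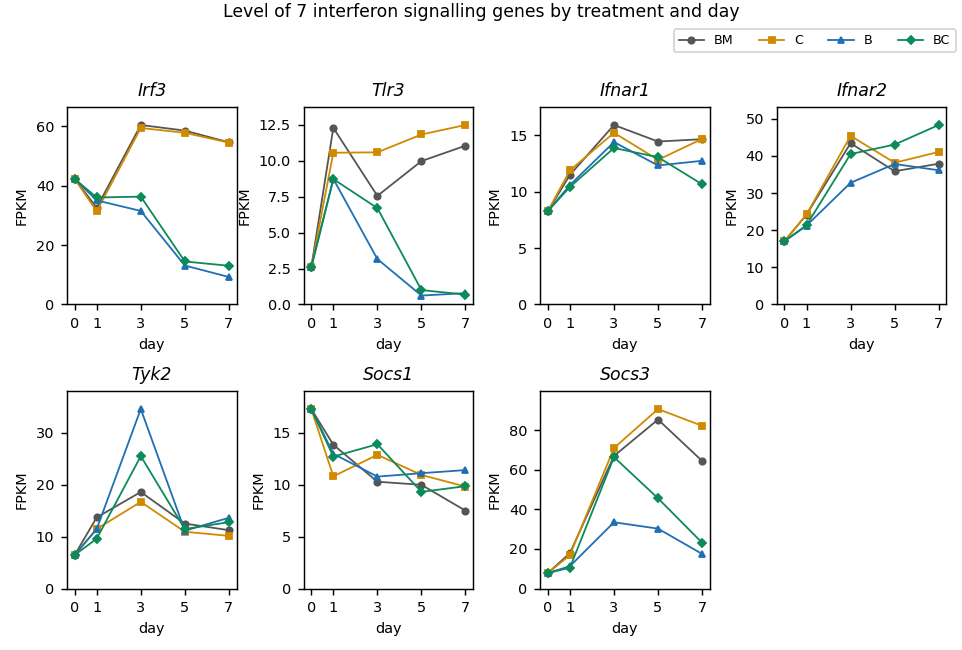
FPKM of 7 interferon signalling genes (y axes, linear, from 0) against day of culture in BM, C, B and BC, 1 library per point, from the single day 0 library. Irf3 and Tlr3 fall with bFGF by day 5, Ifnar1 and Ifnar2 stay close together, Tyk2 peaks on day 3 in B and BC, and Socs3 stays higher in BM and C on days 5 and 7.

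A further list of 80 interferon-induced genes outside the 33 gave the setting of the members. Of these, 75 were in the files and 71 tested, and over the days 30 were called lower and 19 higher with bFGF, against 33.9% and 34.6% of all genes, with a median log2 fold change of -0.25. Tmem140 (-2.72), Irgm2 (-2.17) and Ifi47 (-1.78) had the most negative called values by the naming rule, and Isg20, an exonuclease gene, was called higher at 1.47. Mx1, Mx2, Oas1b, Ifi207 and Cxcl11 were not analysed here.

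Markers of other cell types were read for the same libraries. Microglia and macrophage markers summed to 0.44 FPKM on day 0, 0.40 to 3.29 without bFGF and 0.23 to 3.91 with it, and 11 of 13 were below 1 FPKM in every library. The 4 lymphocyte markers found were below 1 FPKM in every library, and endothelial markers summed to at most 1.42. The sum of the mural cell and fibroblast markers differed with bFGF, though 3 of the 7 (Rgs5, Cspg4 and Lum) were below 1 FPKM in every library. It was 4.57 FPKM on day 0, 15.95 to 161.7 without bFGF and 7.80 to 38.7 with it, and came mainly from Pdgfrb and Col1a1. The part of these markers in the member results was not tested.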

How the data were processed

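RNA of 17 libraries was poly-A selected and, per the study, sequenced on BGISEQ-500. The submitters' processing notes name Bowtie2, RSEM and mm10, whereas the study's methods name Bowtie 2 and eXpress; versions are not given in the sources used here. The authors deposited per gene an expected count (estimated reads, shared reads split) and an FPKM (scaled by transcript length and library total), listed from 0.01. Genes missing from a library's file were set to 0 there. No 2 libraries were identical. Totals of 17571973 to 19428744 set the precision, and without replicates the spread between cultures is not known.

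Expected counts were rounded and fitted in edgeR 4.0.16 under R 4.3.3 (TMM, glmQLFit, glmQLFTest, Benjamini-Hochberg, threshold 0.05), over genes with mean FPKM of at least 1 in the 16 cultured libraries. Effects over the days came from a model of day, bFGF and CHIR99021, to which the interaction was added, and effects by day from 8 groups of day and bFGF with CHIR99021. The coefficients of variation that edgeR terms biological were 24.7% and 10.0%. Without replicates they measure departures from the fitted effects and not the spread between cultures. Day 0 and pair differences used log2(FPKM + 1). Alternatives were no filter, a minimum mean FPKM of 5, DESeq2 1.42.0 and its size factors, library totals only, limma 3.58.1 on log2(FPKM + 1) or log2(FPKM + 0.1), CHIR99021 left out, and each day or library left out. The fits were also run on simulated counts with few changed genes, an equal bFGF effect on all days and no day or CHIR99021 effect. These settings differ from the data, so that run does not show how the fits perform here. numpy 2.4.6, pandas 2.3.3 and matplotlib 3.10.9 under Python 3.11.15 made the tables and plots.

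The members and lists were chosen with earlier results of these data known. Values in every library were given for Stat2, Irf9, Irf7, Irf1, Isg15 and the 12 members with the largest bFGF change over the days among those called and changed the same way in all 8 pairs. Ifih1, Bst2 and Cxcl10 were added after their values were seen. Signalling genes were named by role, Tlr3, Irf3, Socs1 and Socs3 after their values were seen. Coordinates and promoters are RefSeq (GRCm38.p6). Some items of the lists are not reported here.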

Additional observations from a re-analysis of the deposited data

Results flagged for a closer look

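The effect of bFGF differed between day 1 and day 7 for 19 members, each by the edgeR test of the difference with Benjamini-Hochberg adjustment, and values are log2 differences, day 7 minus day 1. The difference was negative for Parp14 (-1.95), Ifit1 (-1.80), Ifih1 (-1.77), Parp9 (-1.64), Lgals3bp (-1.33), Parp12 (-1.20), Isg15 (-0.90), Eif2ak2 (-0.82), Samd9l (-0.74), Herc6 (-0.60), Trim25 (-0.48) and Dtx3l (-0.41). It was positive for Ifi44 (0.69), Xaf1 (0.72), Irf7 (0.87), Cxcl10 (0.92), Ifit2 (1.04), Bst2 (1.33) and Irf1 (1.67). Over all genes tested, 65.4% were called in this comparison, so a difference between the days was common. With library totals as the only scaling, Ifi44, Xaf1, Irf7 and Cxcl10 kept a positive value of 0.23, 0.26, 0.40 and 0.47 and were not called.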

How the results depend on the processing

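The numbers of members called for bFGF and for changes over the days kept within 1.5 times of the reported number under no filter, a mean FPKM of at least 5, DESeq2 and its size factors, library totals only, limma and CHIR99021 left out, where each was run. These numbers hold both directions together. With library totals only, fewer members were called higher over the days, on day 7 and for the difference between day 7 and day 1, as given above. Leaving out whole days moved the bFGF count over the days from 22 to 11 without day 5 and 11 without day 7, and the cause was not tested. For single members, Irf1 on day 5 reversed, from 0.44 to -0.0088 with library totals only and to -0.0024 with limma on log2(FPKM + 1). Scaling by library totals shifted the median of all genes by -0.29 over the days, -0.46 on day 5 and -0.54 on day 7. Leaving out each library in turn gave 18 to 25 members called over the days, 0 to 2 on day 1, 5 to 20 on day 3, 27 to 28 on day 5, 20 to 27 on day 7, 15 to 20 for the difference between day 7 and day 1, and 0 for CHIR99021 and for the interaction. For day 3 against day 1 the range was 13 to 18 without and 10 to 17 with bFGF, and for day 7 against day 3 it was 3 to 15 and 19 to 27. Libraries could not be paired by replicate because the labels carry no replicate numbers. Day and CHIR99021 were terms of the model over the days, and members were also compared in 8 pairs of libraries that share a day and a CHIR99021 state. Across the other settings, values of called members over the days stayed called with their sign in 227 cases and lost the call in 37. On day 5 the counts were 164 and 2, with 2 more cases reversed in sign, and on day 7 they were 156 and 6. Depth limited little, since the lowest FPKM of any member in any library was 3.07, but there were no replicates.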
